A study of Mus musculus with 6 samples.

Results

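The genes described are the 10 secreted Wnt inhibitors of the SFRP, DKK and WIF families: Sfrp1, Sfrp2, Sfrp4, Sfrp5, Frzb, Dkk1, Dkk2, Dkk3, Dkk4 and Wif1. They were chosen by name, as the probe sets of the array to which the platform annotation gives exactly one of these symbols, and all 10 were found, with 1 probe set each, among 19938 genes. The RNA came from immortalized neural precursor-like cells of C57BL/6J mouse embryos (day 13.5 brain), grown in RPMI with little serum. The 3 knock-out samples, with a homozygous deletion of Lgi1, a secreted synaptic protein whose loss causes epilepsy, were compared with 3 samples that were wild type for Lgi1, each on 1 Affymetrix Mouse Gene 1.0 ST array. The labels call the samples of a genotype biological replicates but do not say how many embryos or lines they came from, so the p-values reflect how these samples scatter, which may be technical. The sources used here do not say how the cells were immortalized.

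Wnt proteins are secreted signals that bind a Frizzled receptor and a co-receptor, LRP5 or LRP6, on the receiving cell and so stabilize β-catenin. Secreted inhibitors act outside the cell and fall into classes by what they bind. SFRP proteins, among them Frzb, carry a cysteine-rich domain like that of Frizzled receptors and bind Wnt proteins directly, as does WIF1 through its own WIF domain. DKK1, DKK2 and DKK4 bind LRP5 and LRP6 instead, and Kremen proteins serve as their further receptors, whereas DKK3 is a divergent member whose link to LRP co-receptors is not settled. In the embryonic brain and its coverings these genes shape gradients of Wnt activity, and several are also typical of mesenchyme and bone.

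The inhibitors separated into a group of 5 that differed between the genotypes and a group of 5 whose values lay at background level. Sfrp2, Sfrp1, Dkk3 and Frzb rose in knock-out cells, by 226-fold, 18.7-fold, 8.83-fold and 2.98-fold, and Sfrp4 fell 1.56-fold. Sfrp5, Dkk1, Dkk2, Dkk4 and Wif1 did not pass the test. A gene is said to have risen or fallen at a limma adjusted p under 0.05 (Benjamini-Hochberg over all 19938 genes), and a log2 fold change is the knock-out mean minus the wild-type mean. By this rule 4 of the 10 inhibitors were higher, where 14.0% of all genes were, and 1 was lower, where 17.6% of all genes were (31.6% in either direction). All 4 rises were at least 2-fold, a size reached by 3.05% of all genes upward and 2.27% downward. The arrays of the genotypes did not overlap for 5 of the 10 inhibitors, against 42.3% of all genes. The median log2 fold change over the inhibitors was +0.12, beside −0.01 over all genes, and the median absolute log2 change was 0.39 beside 0.11.

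Background was judged from 1190 receptor genes of the olfactory and vomeronasal epithelium, with a median log2 value of 4.89 and a 95th percentile of 5.67. Among genes with a mean under that percentile 7.78% were called, and among brighter genes 49.3%. The 5 inhibitors that changed were the 5 with a mean over the 6 arrays above it, but Sfrp1, Sfrp2 and Frzb exceeded it through the knock-out arrays alone, so a gene of that kind had to differ.

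**Figure D1:**
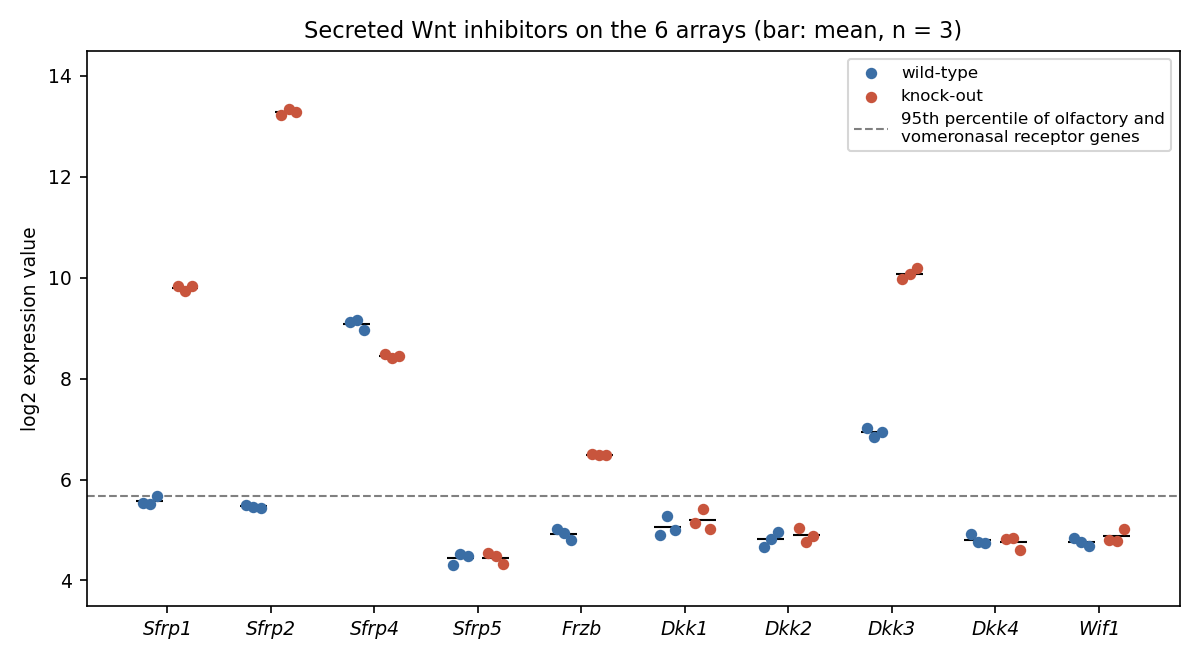
Log2 expression value (vertical axis) of each inhibitor on the 3 wild-type arrays (blue) and the 3 knock-out arrays (red), with the mean of each genotype as a bar and the background level of 5.67 as a dashed line. Sfrp1, Sfrp2 and Frzb lie above the line only in knock-out means, Sfrp4 and Dkk3 in both genotypes, and the other 5 genes in neither.

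The region upstream of the start site is shown for Sfrp2 and Frzb, which rose, and for Dkk1, a gene known as a direct target of β-catenin that stayed at background level, so that the sequences can be compared. RefSeq windows of assembly GRCm38.p6 were at hand for 6 of the 10 inhibitors (Sfrp2, Sfrp5, Frzb, Dkk1, Dkk2 and Wif1). Each line gives the 250 bases before the start site, 5′ to 3′ on the strand of the gene. Capitals mark matches to CTTTGNN with A or T at either N, letters that TCF/LEF factors can bind, or to the TATA box letters TATAAA. Both strands were searched, and no matches overlapped.
Sfrp2: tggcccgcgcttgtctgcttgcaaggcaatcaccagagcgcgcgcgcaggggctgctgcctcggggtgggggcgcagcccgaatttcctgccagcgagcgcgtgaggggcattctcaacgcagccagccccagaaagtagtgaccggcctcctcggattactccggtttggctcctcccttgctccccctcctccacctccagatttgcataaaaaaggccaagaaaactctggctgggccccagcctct
Frzb: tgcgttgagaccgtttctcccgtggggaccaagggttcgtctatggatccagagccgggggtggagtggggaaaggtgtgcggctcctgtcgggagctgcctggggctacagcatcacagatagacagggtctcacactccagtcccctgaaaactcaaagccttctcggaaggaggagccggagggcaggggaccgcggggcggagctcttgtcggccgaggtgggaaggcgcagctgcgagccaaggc
Dkk1: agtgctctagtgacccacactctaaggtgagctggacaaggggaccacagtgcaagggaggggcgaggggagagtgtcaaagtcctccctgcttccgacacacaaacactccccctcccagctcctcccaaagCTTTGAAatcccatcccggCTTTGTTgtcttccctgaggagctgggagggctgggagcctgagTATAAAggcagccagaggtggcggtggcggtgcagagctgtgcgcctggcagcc
These are chr3:83766071-83766320 on the plus strand for Sfrp2, chr2:80447397-80447646 on the minus strand for Frzb and chr19:30549497-30549746 on the minus strand for Dkk1. The Dkk1 window held 2 matches of the TCF/LEF letters, CTTTGAA and CTTTGTT, beginning 117 and 98 bases before the start, and 1 TATAAA beginning 54 bases before it. The windows of Sfrp2 and Frzb held neither motif. Of all 32851 windows of this length, 14.8% held a TCF/LEF match and 12.4% held TATAAA. Sfrp2 and Frzb had 16 CpG dinucleotides each and a GC content of 63.6% and 64.4%, against 6 CpG and 60.8% for Dkk1 and medians of 6 and 52.4% over all windows. Among the windows not printed, those of Dkk2 and Wif1 held 1 TATAAA each, in Wif1 on the opposite strand, and that of Sfrp5 neither motif. Their CpG counts were 21 for Wif1, 13 for Sfrp5 and 7 for Dkk2, with a GC content of 62.8%, 59.6% and 55.6%. These genes stayed at background level, so many CpG dinucleotides were not particular to the inhibitors that rose. A match is a description of the letters in the window and not a measured site, and these arrays did not measure binding.

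Within the SFRP family, Sfrp2 (probe set 10492798, chromosome 3) changed most. It encodes a Wnt-binding protein that also modulates procollagen processing. The 3 wild-type arrays read 5.50, 5.47 and 5.43 on the log2 scale, and the 3 knock-out arrays 13.22, 13.34 and 13.30. The wild-type arrays all lay under the background level, and the lowest knock-out array was 7.72 above the highest of them. The log2 fold change was +7.82 with a 95% interval of 7.68 to 7.96, or 205-fold to 248-fold (limma adjusted p = 9.5e-13). Its rise was similar in size to those of Aspn (+7.81) and Xist (+7.80), the closest of all genes, and the order of Sfrp2 and Aspn turned without wild-type replicate 2 (7.82 and 7.95), wild-type replicate 3 (7.80 and 7.84) or knock-out replicate 3 (7.81 and 7.86). The order of Sfrp2 and Xist turned without wild-type replicate 3 (7.80 and 7.89) or knock-out replicate 2 (7.79 and 7.81). Because the wild-type signal was at background, this fold depends on the background level as well as on the knock-out signal, and the same holds for Sfrp1 and Frzb.

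Sfrp1 (probe set 10570957, chromosome 8), a close relative that is made by neural progenitors of the embryonic cortex and by mesenchyme, had log2 values of 5.54, 5.52 and 5.68 in wild-type and 9.83, 9.74 and 9.84 in knock-out cells. The knock-out arrays stood together well above background, and the wild-type mean lay just under it. The means were 5.58 ± 0.0864 and 9.81 ± 0.0532 (SD, n = 3 each). The log2 fold change of +4.23 (SE 0.07, limma adjusted p = 3.3e-11) amounted to 18.7-fold, with a 95% interval of 16.9 to 20.8, and ranked 58 among the rises of all genes.

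Frzb (probe set 10484307, chromosome 2), also called sFRP3 and known from developing cartilage, rose less. Its log2 values were 5.02, 4.94 and 4.80 in wild-type cells and 6.51, 6.48 and 6.49 in knock-out cells. All knock-out arrays lay above background and all wild-type arrays below it. The means were 4.92 ± 0.112 and 6.49 ± 0.0123 (SD, n = 3 each), a log2 fold change of +1.57 (SE 0.07, limma adjusted p = 5.0e-08) or 2.98-fold, with an interval of 2.67 to 3.31.

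Sfrp4 (probe set 10403834, chromosome 13), an inhibitor with a role in bone and in phosphate handling, went the other way. On the log2 scale it read 9.12, 9.17 and 8.97 in wild-type cells and 8.48, 8.41 and 8.44 in knock-out cells. It was the only SFRP gene well above background in wild-type cells, and it stayed above background in the knock-out cells, with a gap of 0.49 between the nearest arrays of the genotypes. The means were 9.09 ± 0.103 and 8.44 ± 0.0325 (SD, n = 3 each). It fell by 0.64 on the log2 scale (SE 0.07, limma adjusted p = 4.6e-05), so that 64.0% of the wild-type signal remained.

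Sfrp5 (probe set 10467744, chromosome 19), an SFRP gene of gut endoderm and fat tissue, read 4.31, 4.52 and 4.48 in wild-type and 4.54, 4.48 and 4.33 in knock-out cells on the log2 scale. The genotypes overlapped, and every array was under background. Its log2 fold change was +0.01, with a 95% interval of −0.16 to 0.19 (limma adjusted p = 0.93).

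Of the DKK family only Dkk3 (probe set 10567010, chromosome 7) passed the test. Dkk3 encodes the divergent Dickkopf protein, also known as REIC, whose RNA is low in many immortalized and tumour cells. Its log2 values were 7.02, 6.85 and 6.94 in wild-type cells and 9.97, 10.07 and 10.20 in knock-out cells. Both genotypes lay above background, which sets Dkk3 apart from the other 3 genes that rose, so its fold rests on signal on both sides. The means were 6.94 ± 0.0829 and 10.08 ± 0.114 (SD, n = 3 each). Dkk3 thus had a log2 fold change of +3.14 (SE 0.08, limma adjusted p = 6.2e-10), which is 8.83-fold with an interval of 7.85 to 9.93.

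The LRP-binding members of the family were not measurable above background. Dkk1 (probe set 10467006, chromosome 19), which is required for head formation in the embryo, read 4.91, 5.27 and 5.01 in wild-type and 5.15, 5.42 and 5.01 in knock-out cells on the log2 scale. Replicate 2 was the highest array in both genotypes, and the genotypes overlapped. The log2 fold change was +0.13 (95% interval −0.14 to 0.39, limma adjusted p = 0.50, and 0.18 when replicate numbers were blocked). Dkk2 (probe set 10496125, chromosome 3), a modulator of Wnt signalling in the eye and in bone, read 4.67, 4.82 and 4.96 against 5.04, 4.77 and 4.89, with a log2 fold change of +0.09 (95% interval −0.12 to 0.29). Dkk4 (probe set 10570850, chromosome 8), an inhibitor known from skin appendages, read 4.92, 4.77 and 4.74 against 4.82, 4.85 and 4.61, with a log2 fold change of −0.05 (95% interval −0.23 to 0.13). The arrays of both genes were mixed between the genotypes. Their limma adjusted p-values were 0.57 and 0.73.

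Wif1 (probe set 10366653, chromosome 10), the Wnt inhibitory factor of retina, cartilage and brain, likewise stayed at background. Its log2 values were 4.85, 4.76 and 4.68 in wild-type and 4.81, 4.79 and 5.02 in knock-out cells. One knock-out array lay above all others and the remaining 2 fell among the wild-type arrays. Its log2 fold change was +0.11 (95% interval −0.07 to 0.28, limma adjusted p = 0.39). For these 5 genes a difference in RNA below the background of the array was not detectable, and the values do not show that the genes are silent.

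**Figure D2:**
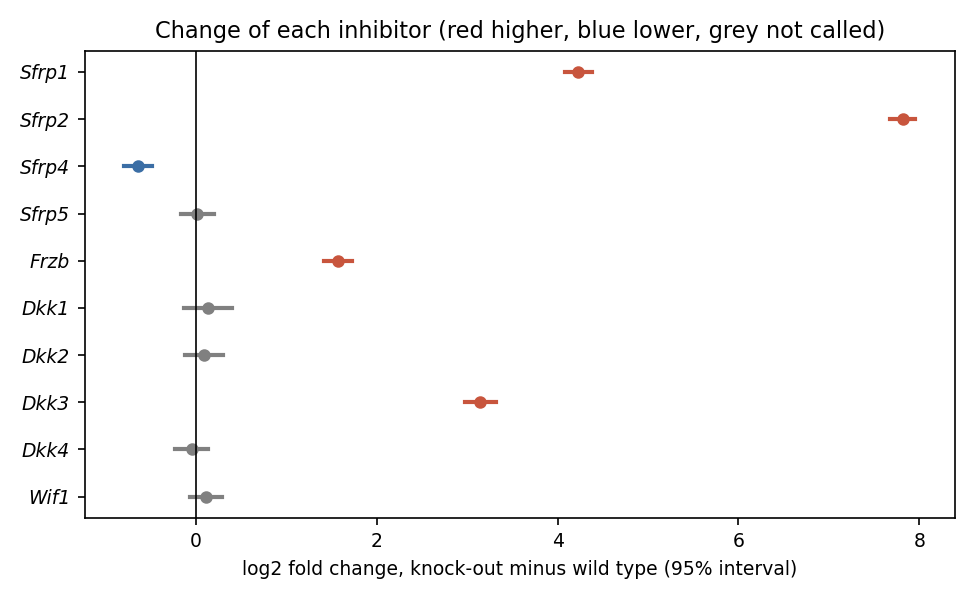
Log2 fold change of each inhibitor, knock-out minus wild type (horizontal axis), with its 95% interval from the limma fit over all genes (3 arrays per genotype). Sfrp2, Sfrp1, Dkk3 and Frzb lie to the right of 0, Sfrp4 to the left at −0.64, and the intervals of the other 5 genes span 0.

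**Figure D3:**
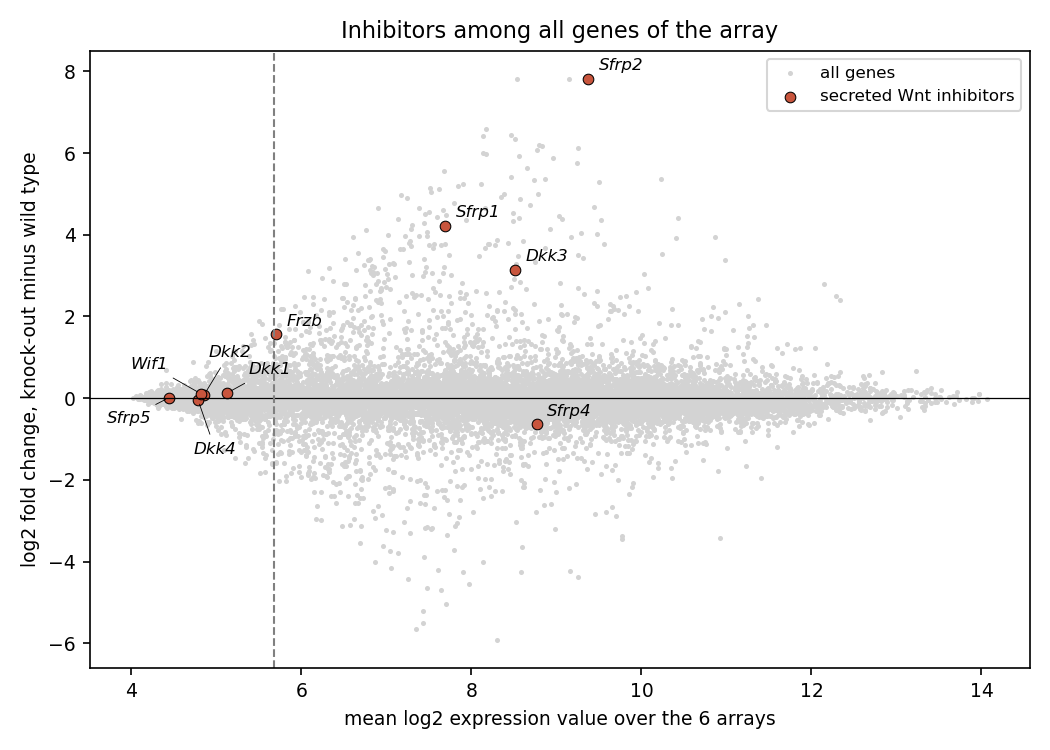
Log2 fold change (vertical axis) against the mean log2 value over the 6 arrays (horizontal axis) for all 19938 genes in grey and the 10 inhibitors in red, with the background level of 5.67 as a dashed line. Sfrp2 lies at the top of the plot beside Aspn and Xist, and the 5 inhibitors left of the line sit close to 0, as do most genes there.

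The changes of the 4 risen inhibitors were compared in shape and size with those of all other genes, by the root mean square difference over the 6 arrays after each gene was centred on its own mean. The closest gene to Sfrp2 was Xist, the RNA that coats the inactive X chromosome (difference 0.11 on the log2 scale), followed by Aspn, a matrix proteoglycan (0.19). The third, Car3, a carbonic anhydrase, was already 0.62 away. Sfrp1 was closest to E330013P04Rik (0.083), Il1rn, the interleukin 1 receptor antagonist (0.11), and Mgp, an inhibitor of calcification (0.12). Dkk3 was closest to Nfatc4, a transcription factor (0.073), Ehd3, an endocytic ATPase (0.079), and Hoxa5 (0.084). Frzb was closest to Sdc2, a heparan sulfate proteoglycan (0.026), Serinc2 (0.054) and Pde1a, a cyclic nucleotide phosphodiesterase (0.058). With 2 genotypes such a likeness mostly reflects a difference of the same size.

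Pde1a is also a chromosomal neighbour of Frzb, with 1 measured gene between them. Its log2 fold change was +1.51 (from the same fit, limma adjusted p = 4.7e-08), while the intervening Dnajc10 had +0.06 and Nckap1, on the far side of Frzb, +0.04, neither of which passed. The neighbours were examined after the values were seen, as the 3 measured protein-coding genes on either side of each inhibitor in the RefSeq order. Of the 60 neighbours 12 were higher and 13 lower (41.7% called, beside 31.6% of all genes). The share over all genes includes genes that are not protein-coding, so the sets are unlike. None of the 6 around Sfrp2 rose (3 were lower), none of the 6 around Sfrp1 rose (2 were lower), and of the 6 around Dkk3 only Parva, an actin-linked adaptor of integrins, did (+0.33). Among the neighbours of Sfrp4 Amph, a synaptic membrane-bending protein, fell by 3.11 on the log2 scale and the other 5 did not pass. Wif1 lay beside 5 genes that rose, led by Hmga2, a chromatin protein (+2.04), while its own signal stayed at background. Dkk4 and Sfrp1 lie on the same stretch of chromosome 8, with 10 measured genes between them, of which 2 rose and none fell.

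Dkk1 and Sfrp5 lie on chromosome 19, on either side of Lgi1, the deleted gene. Between Dkk1 and Lgi1 lay 50 measured protein-coding genes, of which 6 rose and 24 fell, and between Lgi1 and Sfrp5 lay 48, of which 3 rose and 20 fell. Lgi1 itself had means of 4.77 ± 0.168 and 4.55 ± 0.0211 (SD, n = 3 each), both under background, and did not pass (log2 fold change −0.22, limma adjusted p = 0.075). It passed with the replicate block (0.046), with arrays centred on their medians (0.040), with an intensity trend (0.046) and without wild-type replicate 1 (0.018), and at these levels it is no check of the labelled deletion. Over the whole interval, Lgi1 included, 9 of 99 genes rose and 44 fell (53.5% called). Of all genes 14.0% rose and 17.6% fell (31.6% called). These sets are unlike, since all genes include ones that are not protein-coding and many at background. Among genes with a mean at or above background 49.3% were called. The share over protein-coding genes alone was not computed. Neither inhibitor at its ends gave a signal above background on any array.

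A list of 9 other antagonists that act outside the cell, secreted or bound to the membrane, gave 2 rises and 1 fall (33.3% called, beside 31.6% of all genes). In these lists and among the genes named above, a genotype mean under background limits the size of the log2 difference of a called gene. This applies to the wild-type means of Aspn, Car3, E330013P04Rik, Nfatc4, Pde1a, Wnt2b, Wnt16, Rspo2, Lgr5, Nkd2, Thy1, Pdgfra, Lum, Alpl, Erg, Tek and Xist. The same holds for the knock-out means of Amph, Wnt10b, Rspo1, Sox2, Pax6, Syt1, Eif2s3y, Uty and Kdm5d, and for both means of Kdr. Igfbp4, an IGF-binding protein that can also block Frizzled and LRP6, rose by 3.32 on the log2 scale (7.09 to 10.41), and Trabd2b, a protease that inactivates Wnt proteins, by 1.13. Apcdd1, a membrane-bound inhibitor that binds Wnt and LRP5, fell by 1.58 on the log2 scale (9.12 to 7.54). The remaining 6, Sost, Sostdc1, Notum, Cer1, Draxin and Dkkl1, did not pass, and both means of 5 of them were under background. The limma adjusted p of the 3 called genes was 7.0e-07 or less.

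The receptors that the inhibitors compete for or bind changed in part. Of 18 Frizzled receptors, LRP co-receptors, Kremens and other Wnt receptors, 8 rose and 2 fell (55.6% called). Of all genes 31.6% were called, and of those with a mean at or above background 49.3%. Only 2 of the 18 had both means under background. Fzd4, the receptor of Norrin and of Wnt proteins, rose by 3.49 on the log2 scale and Fzd1 by 2.13. Lrp6, the DKK1-binding co-receptor, rose by 1.23 and Fzd8 by 1.01, while Lrp5 had a log2 fold change of −0.11 (limma adjusted p = 0.36). Kremen1 rose by 0.38, and Kremen2, with means of 5.46 and 5.51, was under background. Fzd3 (−0.93) and Fzd6 (−0.56) fell. Fzd9 (+0.27, limma adjusted p = 0.068) passed when the replicate numbers were taken as a block (0.039) and without knock-out replicate 1 (0.022).

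Of the 19 Wnt ligands, which the SFRP proteins and WIF1 bind, 3 rose and 3 fell, which is 31.6%, the same share as over all genes, and 11 had both means under background. Wnt2b, a ligand of the dorsal midline and of mesenchyme, rose by 2.63 (5.48 to 8.12), and Wnt5a, a ligand of β-catenin-independent signalling, by 0.78. Wnt16 rose by 0.54 and Wnt4 fell by 0.69. Wnt10b (−0.27) and Wnt10a (−0.23) were the other falls, and that of Wnt10a was lost when any single array other than knock-out replicate 1 was left out (adjusted p up to 0.16) and under robust moderation with an intensity trend (0.065). Of the secreted agonists, the 4 R-spondins and Ndp, the gene of Norrin, 2 rose and 1 fell. The share called was 60%, beside 31.6% of all genes and 49.3% of those with a mean at or above background. Rspo4 and Ndp were under background. Rspo2 rose from 5.18 to 11.16 and Rspo3 from 5.88 to 10.87 on the log2 scale, and Rspo1 fell by 1.24.

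Feedback and target genes of β-catenin signalling gave 6 rises and 1 fall among 11 measured. Of these 63.6% were called, beside 31.6% of all genes and 49.3% of those with a mean at or above background. Lgr5, an R-spondin receptor, rose by 5.15. Nkd1 and Nkd2, intracellular feedback inhibitors, rose by 3.08 and 1.74, and the feedback gene Axin2 by 0.47 (5.71 to 6.17, limma adjusted p = 0.0010). Lef1 (−0.13) and Sp5 (−0.06) did not pass and had both means under background. Cd44 fell by 0.96. Myc (−0.35, limma adjusted p = 0.078) passed as lower, making 2 falls, in the fit with a replicate block (0.0027), without wild-type replicate 1 (0.0064) and among genes above the median level (0.0497). The rise of Ccnd1, a cyclin (+0.38, adjusted p = 0.032), was lost without wild-type replicate 1 or 3 or knock-out replicate 2 or 3 (adjusted p up to 0.12) and with arrays centred on their medians (0.052). These values are RNA levels of the named genes and do not measure pathway activity.

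The genes of the tolloid proteinases and their enhancers, which cleave procollagen and which SFRP2 can modulate, gave 2 rises and 1 fall. That is 60% called, beside 31.6% of all genes and 49.3% of those with a mean at or above background. Of these lists so small, a share rests on few genes. Of the 5 genes Bmp1 rose by 0.61 and Pcolce by 0.55, Pcolce2 fell by 1.05, and Tll1 and Tll2 did not pass.

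**Figure D4:**
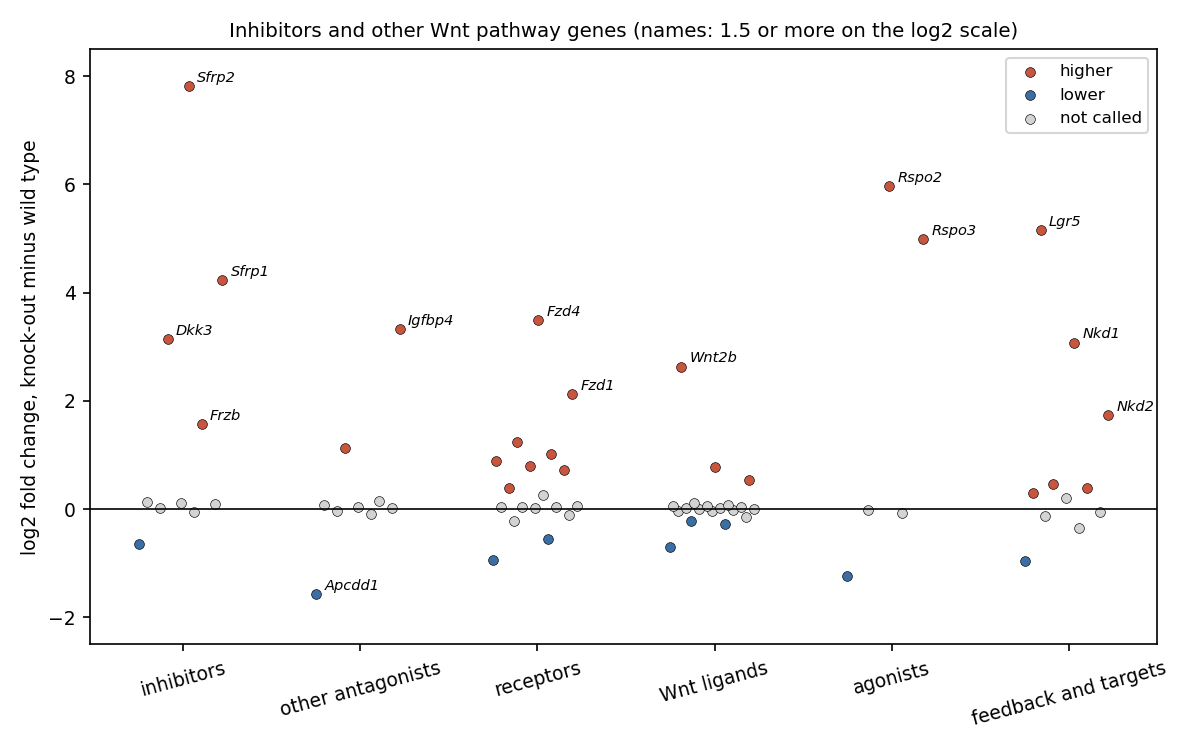
Log2 fold change, knock-out minus wild type (vertical axis), of the 10 inhibitors and of 5 lists of other Wnt pathway genes (horizontal axis, 1 point per gene), coloured by the call of the limma fit. Rises of 1.5 or more are found in each list, with Sfrp2 at +7.82 the highest point and Apcdd1 at −1.58 the lowest.

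The arrays differed between the genotypes in more than these pathways. Of 12 markers of fibroblasts and meninges 11 rose and none fell, led by Postn (+5.77), Col1a2 (+5.30), Thy1 (+3.72) and Foxc1 (+3.40), and their summed antilog signal was 12932 to 14400 arbitrary units on the wild-type and 31789 to 33686 on the knock-out arrays. Most of the wild-type sum came from Fn1, Pdgfrb and Col1a1, which were bright in wild-type cells too (means 12.90, 11.36 and 11.25). They rose by 0.66, 0.23 and 1.23 on the log2 scale. None of the 12 had both means under background. Of the 12, 91.7% were called, beside 31.6% of all genes and 49.3% of those at or above background. One of the 11, Pdgfrb (+0.23, adjusted p = 0.028), was lost without wild-type replicate 1 or 2 or knock-out replicate 1 or 2 (adjusted p up to 0.099) and with arrays centred on their medians (0.057). Of 11 measured markers of neural progenitors, the labelled cell type, none rose and 6 fell. Thus 54.5% were called, beside 31.6% of all genes and 49.3% of those at or above background, and 1 of the 11 had both means under background. Their summed signal was 6314 to 6983 on the wild-type and 2021 to 2076 on the knock-out arrays. Sox2, their defining transcription factor, went from 11.26 to 5.35 and Pax6 from 7.12 to 5.44, so both lay under background on average in knock-out cells, while Nes, encoding nestin, went from 10.73 to 8.72. Sox1 (5.72 to 5.59), Sox3 (5.95 to 5.86), Hes5 (6.53 to 6.57) and Prom1 (4.68 to 4.70) did not pass. Prom1 was under background in both genotypes. Msi1 (+0.31, limma adjusted p = 0.17) passed as higher with the replicate block (0.019) and without wild-type replicate 1 or knock-out replicate 2 (0.034 each). The knock-out arrays, on which Sfrp1, Sfrp2, Dkk3 and Frzb were high, were thus also those with higher fibroblast markers and low Sox2. The part of these markers in the result was not tested. In bulk RNA, fewer cells of a type and less RNA per cell cannot be told apart.

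Markers of further cell types moved in single genes (50%, 33.3% and 33.3% called in the endothelial, neuron and osteoblast lists, beside 31.6% of all genes). Of 6 endothelial genes Erg (+4.60) and Tek (+3.14) rose, Kdr, under background in both genotypes, fell by 0.44 (adjusted p = 0.017, and 0.057 and 0.053 without knock-out replicate 1 or 3), and the defining Pecam1, Cdh5 and Tie1 were under background in both genotypes. The summed signal of the 6 was 185 to 211 on the wild-type and 1312 to 1475 on the knock-out arrays, a difference that rests on Erg and Tek. Of 6 neuron markers Map2 rose by 0.90 and Syt1 fell by 0.92, and Tubb3, Dcx, Snap25 and Rbfox3 were under background (summed signal 1208 to 1324 and 2028 to 2211). Most of this sum was Map2, with log2 means of 10.05 and 10.95. Tubb3 (−0.29, limma adjusted p = 0.093) passed as lower with the replicate block (0.042) and without knock-out replicate 3 (0.015). Of 3 measured osteoblast markers Alpl rose by 0.55, and Sp7 and Ibsp were under background (summed signal 101 to 106 and 117 to 147). Xist went from 4.64 to 12.44, and the Y-linked Eif2s3y, Uty and Kdm5d fell by 5.51, 5.21 and 3.80 on the log2 scale, so the genotypes also differ in these sex chromosome genes on every array. Genotype and these differences cannot be told apart in this design.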

How the data were processed

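Total RNA of 3 wild-type and 3 knock-out samples was isolated with Trizol and turned into biotinylated cDNA, per the labels' protocols. The deposited table holds 1 log2 value per probe set and array (35556 probe sets), a scale judged from its range. The submitters' processing notes name Partek without a version. For background correction, normalization and summarization no method is given in the sources used here, so the scaling between arrays is unknown. Array medians lay between 6.36 and 6.41, and array correlations were 0.993 to 0.995 within and 0.968 to 0.971 between genotypes. The number of arrays limits the precision.

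GEO's platform annotation gave 1 symbol to 21789 probe sets, several to 1621 and none to 12146. The brightest probe set of each gene was kept, with no filter on low values. Chromosomes, gene order and promoter windows came from RefSeq (GRCm38.p6), where 19856 of 19938 genes matched by gene ID. The genotypes were compared in limma 3.58.1 (R 4.3.3, lmFit and eBayes without trend, all 6 arrays, no block), with p-values adjusted by Benjamini-Hochberg over all genes. The members, lists and alternatives were chosen with earlier results of these data known. Named genes were all members, Lgi1, up to 4 called genes with the largest change of each list with its defining markers, and the 3 closest genes of each inhibitor changed at least 2-fold. Further list members and chromosomal neighbours, chosen after their values were seen, are named beside them, and the background level was likewise chosen after the data were seen. Tcf7, Runx2, Bglap, Spp1 and Ddx3y of the lists had no probe set with that single symbol and were not analysed here.

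Both genotypes carry the replicate numbers 1 to 3 in the titles. After subtraction of the genotype means, the 3 pairs of arrays that share a number correlated at 0.19 to 0.29 across genes. The 6 pairs of different numbers between the genotypes correlated at −0.18 to −0.0047. Deviations cancel within a genotype, so these negative values follow from the positive ones and are no separate evidence. The numbers were taken as a possible pairing of the samples. The calls and intervals reported come from the fit without a block, and 1 of the 12 alternatives had a replicate block. On simulated data with the 19938 genes of this comparison, the fit recovered 70% of 50 genes changed by 0.5, 94% of 50 changed by 1 and 100% of those changed by 2 or by 4 on the log2 scale, and called 10 unchanged genes. Far fewer genes were changed there than the 31.6% called here, and the noise was drawn independently for each array. These rates may therefore not hold for the comparison itself.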

Additional observations from a re-analysis of the deposited data

How the results depend on the processing

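The alternatives were the replicate block, quantile normalization, centring on array medians, a filter on dim genes, averaged probe sets, robust moderation with an intensity trend, and leaving out each array in turn. All 114 values of the 10 inhibitors under them kept the call reported. The log2 fold change ranged from 7.79 to 7.85 for Sfrp2, 4.19 to 4.27 for Sfrp1, 3.08 to 3.20 for Dkk3, 1.51 to 1.62 for Frzb and −0.70 to −0.60 for Sfrp4. The filter kept genes above the median level, which removed Frzb and the 5 inhibitors at background, so these have no value under it. Of 192 list and gene counts, 187 stayed within 1.5 times the reported one. Among genes above the median level 1 Wnt ligand and 0 agonists were called lower, against 3 and 1, and fewer genes were tested there. Feedback and target genes called lower numbered 2 in place of 1 with the replicate block and among genes above the median level, and 1 to 2 with an array left out (2 without wild-type replicate 1). The replicate block called 7000 genes against 6296 and changed, among the genes named, no call but those of Fzd9, Myc, Msi1, Tubb3 and Lgi1. Of 121 other named genes 110 kept their call under every alternative run. Centring on medians shifted the median log2 fold change from −0.01 to −0.05. Signal over background limits Sfrp5, Dkk1, Dkk2, Dkk4 and Wif1, and the size of every fold for which a genotype mean was under background, as for Sfrp1, Sfrp2 and Frzb.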
